A study of Mus musculus with 13 samples.

Results

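The miR-29 family was followed here across 13 male wild-type (WT) C57BL/6J mice. Its 3 members, miR-29a-3p, miR-29b-3p and miR-29c-3p, were chosen by name from a panel of 68 miRNA probes, and each was found as 1 probe. Exosomal RNA, that is RNA of the small vesicles that cells release into blood, came from plasma drawn 24 hours after surgery. Of the mice, 8 had cecal ligation and puncture (CLP), a model of sepsis in which a tied and punctured cecum leaks mixed gut bacteria into the abdomen, and 5 had a sham operation. Each sample was taken as 1 mouse and was read as fluorescence on a linear scale. Nothing in the labels gives a batch, a plasma volume or an RNA input.

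MicroRNAs are short RNAs that guide Argonaute proteins to messenger RNAs, mainly by pairing of their seed with the target. The miR-29 family is best known for repressing matrix genes such as the collagens, elastin and fibrillin, and it is lowered by TGF-beta in fibroblasts of several fibrotic tissues. In mouse T cells it restrains interferon-gamma production and the transcription factors T-bet and Eomes, and it also targets DNA methyltransferases.

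The mature sequences are shown because the probes have to tell apart molecules that differ by few bases. They are the mouse sequences of RefSeq on GRCm38.p6, written 5′ to 3′, with the seed (bases 2 to 8) in capitals.
miR-29a-3p: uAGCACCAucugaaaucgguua
miR-29b-3p: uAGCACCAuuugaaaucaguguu
miR-29c-3p: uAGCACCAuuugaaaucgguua

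All 3 mature sequences share the seed AGCACCA, whose perfect target site reads UGGUGCU, and they are identical over the first 9 bases. miR-29a-3p and miR-29c-3p are both 22 bases long and differ by 1 substitution, C10U, with positions counted from 1 at the 5′ end of miR-29a-3p. miR-29b-3p is 23 bases long and differs from miR-29a-3p by C10U, G18A, U21G and A22U over the 22 bases compared. A mouse mature sequence was matched by name to 49 of the 68 probes, and none of these outside the family carried this seed. The probes bear human names, and their own sequences were not used here, so how much a probe reads of the other members was not tested.

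The 3 members come from 4 genes in 2 clusters. Mir29a (chr6:31062660-31062747, minus strand) and Mir29b-1 (chr6:31063023-31063093, minus strand) lie 275 bases apart. Mir29b-2 (chr1:195037040-195037120, plus strand) and Mir29c (chr1:195037547-195037634, plus strand) lie 426 bases apart, within the span of the long noncoding RNA gene A330023F24Rik. The 2 miR-29b hairpins are shown because both hold the same mature miR-29b-3p, given in capitals, so a probe for it cannot say which cluster its signal came from.
Mir29b-1: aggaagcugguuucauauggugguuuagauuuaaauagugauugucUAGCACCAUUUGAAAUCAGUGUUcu
Mir29b-2: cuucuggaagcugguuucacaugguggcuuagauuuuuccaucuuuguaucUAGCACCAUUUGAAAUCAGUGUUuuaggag

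The signal of the whole panel differed between mice and between groups. Its geometric mean, taken over the 60 miRNAs above 0 in all mice, ran from 152.9 to 485 units in CLP mice and from 45.8 to 240.6 units in sham mice, and sham 1 and sham 4 were the weakest. A deposited table of rescaled values swaps CLP 6 and CLP 7 relative to the raw table. The right assignment is not known, so values of single mice follow the raw table, and group values are not affected. The 3 erythroid markers on the panel (miR-451a, miR-486-5p and miR-16-5p) of the 5 listed made up 18.9% to 30.1% of the summed signal in CLP mice and 29.4% to 48.2% in sham mice.

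The first comparison asked how much miR-29 signal was recovered from plasma exosomes, before any scaling between mice. All 3 members rose in CLP mice, by 3.94-fold for miR-29a-3p, 4.54-fold for miR-29b-3p and 4.39-fold for miR-29c-3p. The panel as a whole rose as well: 60 of the 66 miRNAs tested, or 90.9%, were called higher in CLP (limma, Benjamini-Hochberg adjusted p under 0.05), and none was called lower, all 66 changes being positive. The count of 3 of 3 is therefore close to the background.

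miR-29a-3p, which shares a cluster with Mir29b-1, had a lowest raw signal of 1277 units, a median of 2789 and a highest of 3154 in CLP mice, against 255, 559.6, 924, 322 and 1872 units in sham mice 1 to 5. Of the 8 CLP mice, 7 lay above every sham mouse. The exception was CLP 8, the CLP mouse of the weakest panel signal, and sham 5, the sham mouse of the strongest panel signal, overlapped the CLP range. The log2 mean was 11.21 ± 0.47 in CLP mice and 9.24 ± 1.16 in sham mice (SD, n = 8 and 5), a difference of 1.98 (SE 0.47, limma adjusted p = 0.000726, exact two-sided permutation p = 0.00155, adjusted 0.00410 over 66 miRNAs).

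miR-29b-3p, the product of both clusters, had a lowest raw signal of 584 units, a median of 1303 and a highest of 1776 in CLP mice, against 158, 224, 342, 157 and 666 units in sham mice 1 to 5. CLP 8 and sham 5 again were the mice in which the groups overlapped. The difference in log2 means was 2.18 (95% interval 1.28 to 3.08, SE 0.44, limma adjusted p = 0.000159, exact permutation p = 0.00155).

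miR-29c-3p, encoded beside Mir29b-2, had a lowest raw signal of 484 units, a median of 943 and a highest of 1476 in CLP mice, against 59.4, 284, 227, 123 and 715 units in sham mice 1 to 5. Here 5 of 8 CLP mice lay above every sham mouse, and sham 5 lay above CLP 1, CLP 7 and CLP 8. The difference in log2 means was 2.14 (95% interval 1.10 to 3.17, SE 0.50, limma adjusted p = 0.000726, exact permutation p = 0.00311). Without sham 1 and sham 4, the differences were 1.26 for miR-29a-3p, 1.69 for miR-29b-3p and 1.31 for miR-29c-3p, and each still passed by limma, with 36 of 66 miRNAs called higher. For none of the 3 members did the groups separate fully, whereas they did, with CLP higher, for 10 of the 66 miRNAs (15.2%).

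**Figure D1:**
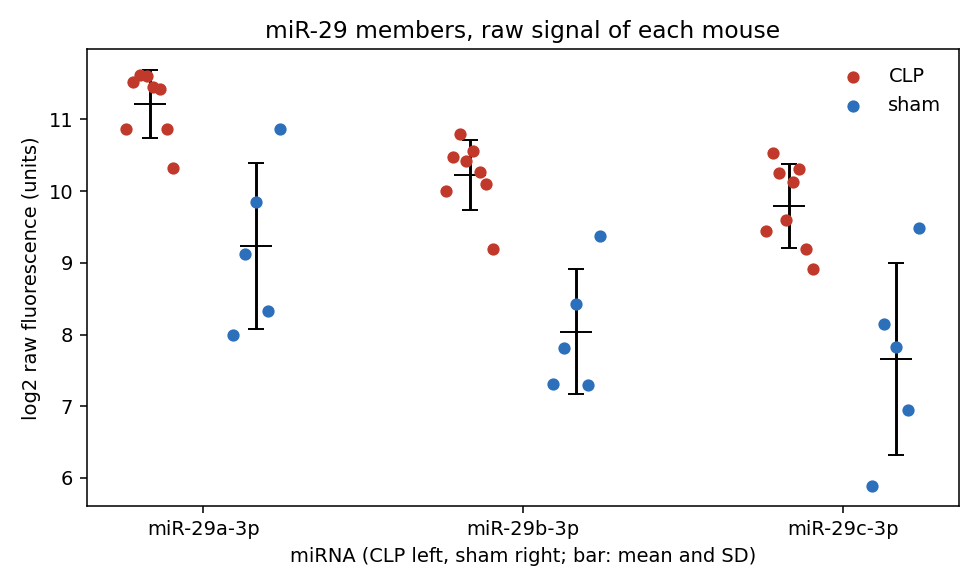
Log2 raw fluorescence (y axis, units) of each miR-29 member in 8 CLP mice (red, left) and 5 sham mice (blue, right), with the mean and SD as black bars. In each member the groups differ by about the same distance, from 1.98 to 2.18 log2 units, and the highest sham point, sham 5, reaches into the CLP range.

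The 3 rises were of similar size. Their unscaled changes spanned 0.20 log2 units, from 1.98 to 2.18, and ranked 21st, 26th and 30th of 66 from the largest, all above the panel median of 1.87. In the let-7 family the changes of 5 members spanned 1.19 log2 units. In the miR-15/16 seed family they spanned 1.60 units over 3 members. There the erythroid marker miR-16-5p was at 0.70, while miR-15a-5p and miR-15b-5p lay close together at 2.04 and 2.29. The changes of miR-30a-5p and miR-30b-5p differed by 1.07 units. These spans describe lists of unequal size and were not tested against each other. Differences between the groups in the number of vesicles, in miRNA per vesicle and in the recovery of RNA cannot be told apart in such a signal.

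The order of the 3 signals was mostly the same from mouse to mouse, although an order of probe signals need not be an order of molecules, since no source used here gives the brightness of each probe per molecule. miR-29a-3p was the brightest of the 3 in 8 of 8 CLP mice and 5 of 5 sham mice. It ranked 6th or 7th of 68 probes in CLP mice and between 7th and 14th in sham mice. miR-29b-3p ranked between 14th and 26th in CLP mice and between 19th and 27th in sham mice. miR-29c-3p ranked between 19th and 31st in CLP mice and between 19th and 32nd in sham mice. miR-29b-3p was brighter than miR-29c-3p in 6 of 8 CLP mice and 3 of 5 sham mice, and dimmer in CLP 2, CLP 6, sham 2 and sham 5. The order of these neighbours thus did not hold beyond the spread between mice.

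The mix of the members in each mouse is free of any factor per sample. miR-29a-3p made up a lowest 50.3%, a median 52.3% and a highest 59.4% of the summed family signal in CLP mice, against 54.0%, 52.4%, 61.9%, 53.4% and 57.5% in sham mice 1 to 5. miR-29b-3p made up a lowest 23.5%, a median 26.8% and a highest 30.8% in CLP mice, against 33.5%, 21.0%, 22.9%, 26.1% and 20.5% in sham mice 1 to 5. miR-29c-3p made up a lowest 14.6%, a median 20.2% and a highest 25.3% in CLP mice, against 12.6%, 26.6%, 15.2%, 20.5% and 21.99% in sham mice 1 to 5. In all 3 the groups overlapped, and the widest range belonged to sham mice.

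**Figure D2:**
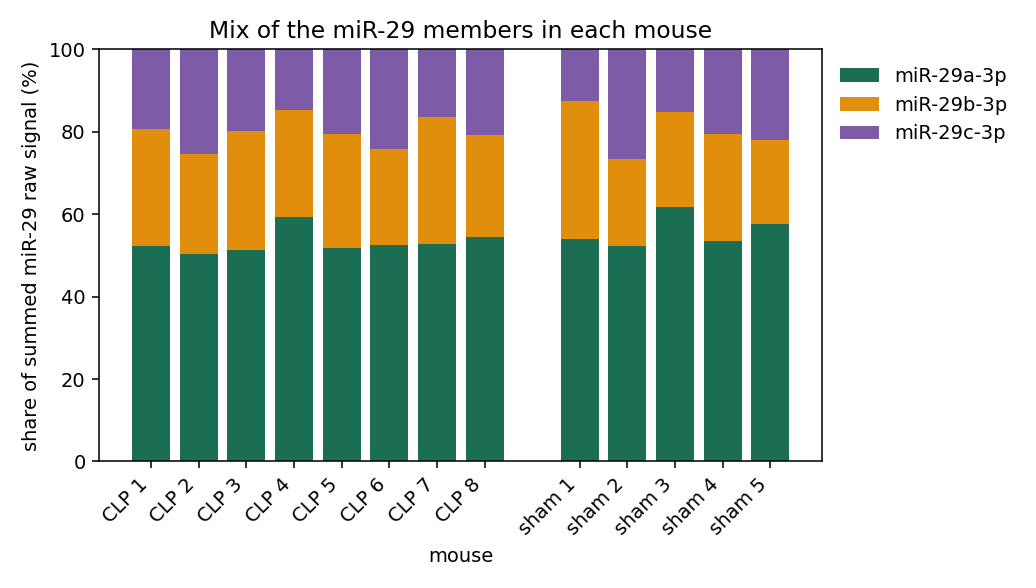
Share of the summed miR-29 raw signal (y axis, %) held by miR-29a-3p (green), miR-29b-3p (orange) and miR-29c-3p (purple) in each CLP mouse (left) and sham mouse (right). miR-29a-3p holds between 50.3% and 61.9% in every mouse, and sham 1 has the largest miR-29b-3p share (33.5%) and the smallest miR-29c-3p share (12.6%).

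The second comparison asked whether this mix changed after CLP, using the log2 ratio of raw signals within a mouse. None of the 3 ratios passed an exact two-sided permutation test over all 1287 splits of the mice, with p-values adjusted over the 3 pairs. The log2 ratio of miR-29b-3p to miR-29a-3p averaged -0.99 ± 0.16 in CLP mice and -1.19 ± 0.33 in sham mice, a difference of 0.20 (95% interval -0.10 to 0.485, exact permutation p = 0.161, adjusted 0.483). Sham 1 moved this value most: its ratio was 0.621, against 0.356 to 0.488 in the other sham mice and 0.437 to 0.585 in CLP mice. Without sham 1 the difference was 0.33 (exact permutation p = 0.0141, adjusted 0.0424 over the 3 pairs), and without both sham 1 and sham 4 it was 0.43 (adjusted 0.0182, by the same test). Without sham 3 or sham 5 it was lower, at 0.14 or 0.13 (adjusted 0.861 and 0.609, by the same test). Of the 13 comparisons that left out 1 mouse, 12 did not pass.

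The log2 ratio of miR-29c-3p to miR-29a-3p, which differ by a single base, averaged -1.42 ± 0.32 in CLP mice and -1.57 ± 0.48 in sham mice, a difference of 0.16 (95% interval -0.325 to 0.64, exact permutation p = 0.493). That of miR-29b-3p to miR-29c-3p averaged 0.43 ± 0.35 in CLP mice and 0.38 ± 0.68 in sham mice, a difference of 0.048 (95% interval -0.585 to 0.64, exact permutation p = 0.869), and it turned negative in 4 of the 13 comparisons that left out 1 mouse (sham 2, sham 5, CLP 4 or CLP 7; lowest -0.13). These intervals come from inverting the permutation test and leave room for changes of either sign.

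The members followed the signal of the panel closely. Within groups, the log2 signal of miR-29a-3p had a slope of 1.03 (SE 0.07) per log2 unit of the panel level, which was computed without the family. The slope was 0.85 (SE 0.06) for miR-29b-3p and 1.11 (SE 0.18) for miR-29c-3p. Among 40 other miRNAs whose raw signal reached 10 units in each mouse, the slopes ran from 0.29 to 1.62, with a median of 0.81. The log2 ratio of miR-29b-3p to miR-29a-3p accordingly had a slope of -0.18 (SE 0.08) on the panel level within groups. In sham mice this ratio fell from -0.69 in sham 1, the weakest, to -1.49 in sham 5, the strongest. No steady fall was seen in CLP mice, with -1.13 in CLP 8, the weakest, -0.83 in CLP 3 and -1.19 in CLP 4, the strongest. A linear model with the panel level as a covariate uses the same slope in both groups. In that model the CLP difference in this ratio was 0.56, against 0.20 without the covariate. It did not pass after adjustment over the 3 pairs (0.0534).

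**Figure D3:**
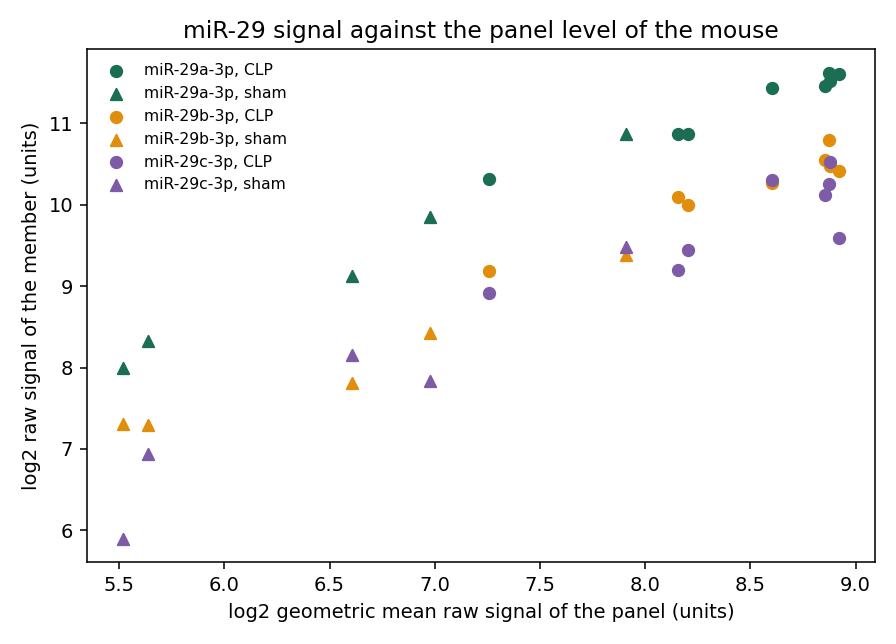
Log2 raw signal of each miR-29 member (y axis, units) against the log2 geometric mean signal of the panel (x axis, units), with CLP mice as circles and sham mice as triangles. The points of each member run along the panel level through both groups, with miR-29a-3p (green) above miR-29b-3p (orange) and miR-29c-3p (purple) in every mouse.

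With the panel level as a covariate, the CLP difference was -0.0061 (SE 0.24) for miR-29a-3p and -0.0043 (SE 0.40) for miR-29c-3p on the log2 scale, with a limma adjusted p = 0.993 for both. For miR-29b-3p it was 0.55 (SE 0.23, limma adjusted p = 0.134), with a 95% interval of 0.060 to 1.04 before adjustment. In that fit 4 of 66 miRNAs (6.06%) were called higher and 4 lower.

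The third comparison asked whether the members changed relative to the panel, with every signal divided by the panel geometric mean of its mouse. None of the 3 passed. The 65 miRNAs tested held 7 called higher (10.8%) and 13 called lower (30.8% in either direction), and 29 had an unadjusted p under 0.05. No member was among these 29 by limma. By exact permutation miR-29b-3p had an unadjusted p = 0.0466 (adjusted 0.104), and miR-29a-3p and miR-29c-3p had p = 0.689 and p = 0.427.

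Scaled miR-29a-3p had a lowest signal of 1669 units, a median of 1789 and a highest of 2293 in CLP mice, against 1531, 1577, 2015, 1771 and 2136 units in sham mice 1 to 5. The 2 groups covered nearly the same range. The log2 difference was 0.040 (95% interval -0.27 to 0.35, SE 0.15, limma adjusted p = 0.855), and it was slightly negative without sham 1 (-0.016), sham 2 (-0.0055) or CLP 8 (-0.0050).

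Scaled miR-29b-3p had a lowest signal of 775 units, a median of 920.2 and a highest of 1056 in CLP mice, against 950.4, 632, 747, 865 and 760.0 units in sham mice 1 to 5. Of the CLP mice, 7 of 8 lay above the sham mean and 3 of 8 above every sham mouse, and sham 1 and sham 4 lay within the CLP range. The log2 difference was 0.24 (95% interval -0.077 to 0.57, SE 0.15, limma adjusted p = 0.212), which is 1.18-fold.

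Scaled miR-29c-3p had a lowest signal of 437 units, a median of 688 and a highest of 894 in CLP mice, against 356, 802, 496, 678 and 816 units in sham mice 1 to 5. Both groups held low and high mice, the lowest being CLP 4 and sham 1. The log2 difference was 0.20 (95% interval -0.31 to 0.70, SE 0.24, limma adjusted p = 0.556). Full separation of the groups was seen for 2 of 65 miRNAs with CLP higher (3.08%) and 3 with CLP lower (4.62%), and no miR-29 member was among them.

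**Figure D4:**
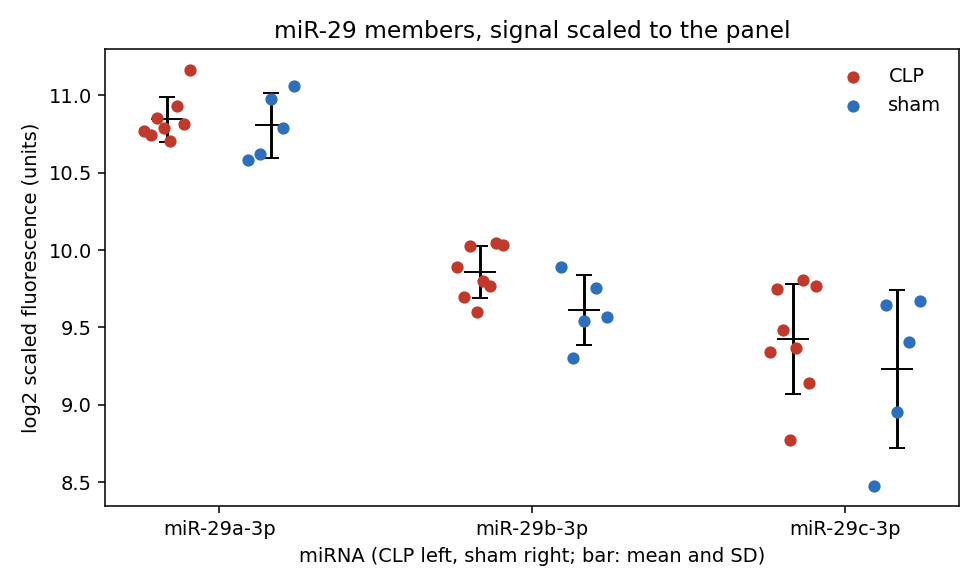
Log2 fluorescence scaled to the panel geometric mean (y axis, units) of each miR-29 member in 8 CLP mice (red, left) and 5 sham mice (blue, right), with mean and SD. The groups overlap in every member, and the points of miR-29a-3p are the most tightly packed while those of miR-29c-3p are the most spread.

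The members differed in how much they varied between mice of 1 group. For the scaled log2 signal the SD was 0.15 in CLP mice and 0.21 in sham mice for miR-29a-3p, and 0.17 in CLP mice and 0.22 in sham mice for miR-29b-3p. For miR-29c-3p it was 0.36 in CLP mice and 0.51 in sham mice, near the panel medians of 0.36 and 0.48. Among the 65 tested miRNAs, miR-29a-3p had the smallest SD in CLP mice and the 9th smallest in sham mice. miR-29b-3p had the 5th smallest in CLP mice and the 11th smallest in sham mice. These ranks were not tested.

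The result for miR-29b-3p depended on the scaling. With the 75th percentile of each sample its log2 difference was 0.463 (SE 0.16, limma adjusted p = 0.0382), and with the authors' rescaled values it was 0.457 (SE 0.16, limma adjusted p = 0.0421), both past the threshold, where 13 of 65 miRNAs (20%) were called higher. These 2 scalings shift the median of the panel to nearly the same value (0.26), against 0.10 with the geometric mean, so they are not separate checks. Relative to the panel median of each fit, miR-29b-3p lay 0.15 above it with the geometric mean and 0.20 above it with the 75th percentile. With quantile normalization it was at 0.20 (limma adjusted p = 0.374) and with median scaling at 0.29 (adjusted p = 0.290), where limma called 7.69% and 6.15% of the panel higher. miR-29a-3p passed in none of the 6 scalings (adjusted p from 0.0986 with quantile normalization, at 0.30, to 0.855), and miR-29c-3p in none either (0.190 to 0.922).

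**Figure D5:**
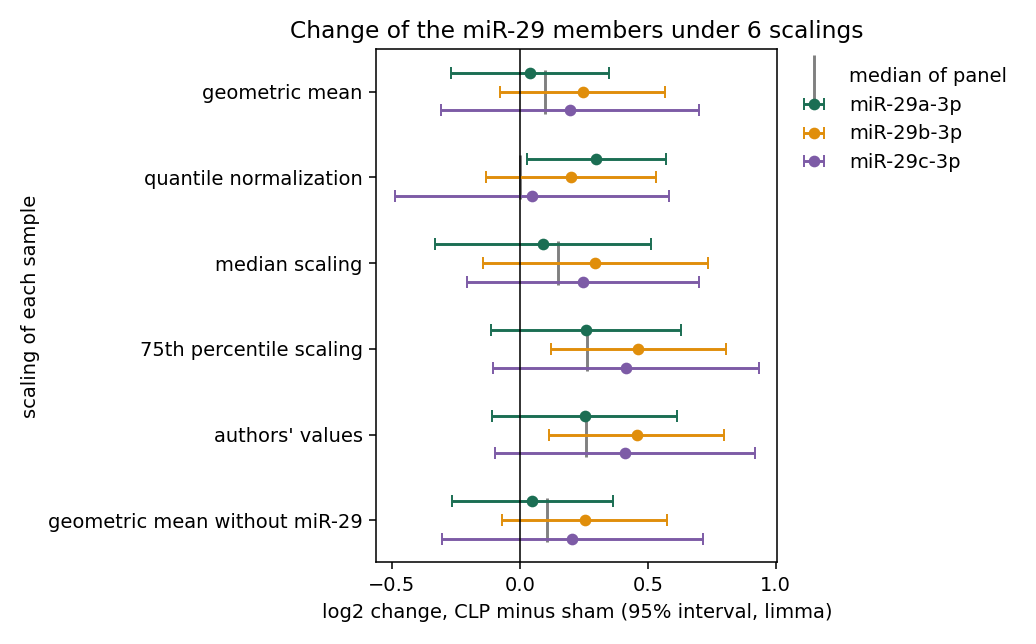
Log2 change, CLP minus sham, with its 95% interval (x axis) for miR-29a-3p (green), miR-29b-3p (orange) and miR-29c-3p (purple) under 6 scalings of the samples (y axis), with the panel median as a grey tick. Every point lies above 0, and the interval of miR-29b-3p clears 0 with the 75th percentile (0.12 to 0.80) and with the authors' values (0.12 to 0.80), as that of miR-29a-3p does with quantile normalization (0.027 to 0.57).

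As a share of the summed panel signal, the family made up a lowest 6.82%, a median 7.68% and a highest 8.66% in CLP mice, against 4.47%, 4.53%, 5.88%, 4.40% and 7.21% in sham mice 1 to 5. Of the CLP mice, 5 of 8 lay above every sham mouse. The sum is dominated by its brightest probes, and the erythroid markers held 22.6% ± 4.02 of it in CLP mice and 39.2% ± 7.51 in sham mice (SD, n = 8 and 5). With these 3 probes left out of the sum, a choice made after seeing the data, the family share averaged 9.94% ± 0.69 in CLP mice and 8.65% ± 1.03 in sham mice (SD, n = 8 and 5), so the ratio of the means was 1.15, against 1.45 with them. The panel has markers of other sources too: the 2 myeloid markers (miR-223-3p and miR-142-3p) made up 4.66% to 6.53% of the sum in CLP mice and 2.55% to 5.30% in sham mice, and the 3 lymphoid markers 4.87% to 8.77% in CLP mice and 2.66% to 5.15% in sham mice. miR-126-3p, the endothelial and platelet marker, made up 1.57% to 3.35% in CLP mice and 0.745% to 1.03% in sham mice. It rose after scaling (log2 0.80, SE 0.23, limma adjusted p = 0.0192). Of the 6 scalings, only quantile normalization did not call it higher (0.66, limma adjusted p = 0.0559). The hepatocyte marker miR-122-5p made up 0.458% to 2.91% in CLP mice and 0.314% to 1.07% in the 4 sham mice with a value. Their part in the miR-29 values was not tested.

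The miRNAs whose scaled signal varied most like each member, with group means removed over 13 mice, were not the other members. All of these values share 1 scaling factor per mouse and describe these mice only. For miR-29a-3p they were miR-22-3p (Pearson r = 0.75, Spearman rho = 0.80), miR-146a-5p (r = 0.57, rho = 0.51) and miR-23a-3p (r = 0.55, rho = 0.45). Without CLP 8 and sham 5, the mice farthest from its median, r was 0.78 for miR-22-3p, 0.46 for miR-146a-5p and 0.17 for miR-23a-3p. Within the 8 CLP mice r was 0.45, 0.10 and 0.78 in the same order.

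For miR-29b-3p the most alike were miR-16-5p (r = 0.55, rho = 0.45), miR-221-3p (r = 0.49, rho = 0.49) and miR-181a-5p (r = 0.47, rho = 0.46). Without CLP 7 and sham 2 these were at r = 0.63, 0.60 and 0.51. For miR-29c-3p they were miR-320d (r = 0.77, rho = 0.69), miR-23a-3p (r = 0.69, rho = 0.82) and miR-10a-5p (r = 0.67, rho = 0.62), at r = 0.68, 0.61 and 0.48 without CLP 4 and sham 1. Within the 8 CLP mice r was 0.57, 0.28 and 0.47 for the 3 miRNAs named for miR-29b-3p, and 0.94, 0.78 and 0.38 for those named for miR-29c-3p.

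Between members, r was 0.40 for miR-29a-3p with miR-29c-3p (rho = 0.37), 0.14 for miR-29a-3p with miR-29b-3p (rho = 0.15) and -0.24 for miR-29b-3p with miR-29c-3p (rho = -0.34). Within the 8 CLP mice the same pairs were at 0.45, 0.47 and 0.24. Among 64 others over 13 mice, miR-29c-3p ranked 7th and miR-29b-3p 21st in likeness to miR-29a-3p. Within CLP mice they ranked 15th and 12th, and miR-146a-5p, named above, ranked 30th. For miR-29b-3p, miR-29a-3p ranked 22nd and miR-29c-3p 52nd over 13 mice. For miR-29c-3p, miR-29a-3p ranked 12th and miR-29b-3p 41st. The pairs encoded side by side are miR-29a-3p with miR-29b-3p on chromosome 6 and miR-29b-3p with miR-29c-3p on chromosome 1. The r of miR-29a-3p with miR-29c-3p was 0.14 without CLP 8 and sham 5 and 0.18 without CLP 4 and sham 1, so it rests on those mice.

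Other miRNAs on the panel with roles near those of miR-29 were taken from lists. Of the 11 miRNAs of the matrix and fibrosis list, 8 were on the panel. Unscaled, 8 of 8 rose, against the background of 90.9%. After scaling, where 10.8% of the panel was called higher and 20% lower, 1 of 8 rose and 2 fell. The riser was miR-200a-3p, which represses the ZEB factors in epithelium (log2 2.16, SE 0.53). It was a dim probe that did not reach 10 raw units in every mouse, and values at the floor entered its change. The median of the list was 0.46, against 0.10 for the panel, and this offset depended on the scaling. With the geometric mean miR-30a-5p, miR-34a-5p and miR-429 were at 0.63, 0.45 and 0.47. With quantile normalization they were at 0.27, 0.019 and -0.21 (panel median -0.0013), and with the 75th percentile at 0.85, 0.66 and 0.50 (panel median 0.26). None of them reached 10 raw units in every mouse. The fallers were miR-21-5p, a miRNA raised in many fibrotic tissues (-0.75, SE 0.22; 1.19 unscaled), and miR-24-3p (-0.48, SE 0.16; 1.46 unscaled). Neither was called with quantile normalization, the 75th percentile or the authors' values.

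Of the 10 miRNAs of the T cell list, 8 were on the panel, and 8 of 8 rose unscaled, against the same background of 90.9%. After scaling 3 of 8 rose and 1 fell, against the same 10.8% and 20% of the panel, with a median of 0.49. The risers were miR-10a-5p, expressed in regulatory T cells (1.98, SE 0.22), miR-146a-5p, which dampens Toll-like receptor signalling and Th1 responses (0.87, SE 0.25), and miR-125a-5p (0.64, SE 0.23). Of these, miR-10a-5p and miR-125a-5p were dim probes that did not reach 10 raw units in every mouse. Neither miR-146a-5p nor miR-125a-5p was called with quantile normalization, nor was miR-125a-5p with median scaling. The lymphocyte miRNAs miR-150-5p (0.53) and miR-181a-5p (0.45) did not pass with the geometric mean, but both were called higher with quantile normalization, the 75th percentile and the authors' values. The faller was miR-17-5p, of a cluster that promotes T cell proliferation (-0.79, SE 0.21; 1.15 unscaled). With the geometric mean, the miR-29 members at 0.040, 0.20 and 0.24 lay close to the panel median of 0.10.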

How the data were processed

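Per the labels' protocols, exosomes were isolated from plasma by ultracentrifugation, RNA was extracted with a column kit, and miRNAs captured on FirePlex particles were ligated to adapters, released and copied in a single RT-PCR step that added biotin. Fluorescence intensity, unscaled between samples, fills the deposited raw table. A second table deposited by the authors, also of intensity, equals the raw one with every sample multiplied by its own factor (0.450 to 4.31), whose choice no source used here gives, nor the scanner or any background subtraction. The raw table has 7 zeros and 1 empty cell, none in the miR-29 family.

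For scaling, the signals of a sample were divided by their geometric mean over 60 miRNAs, those with no zero or empty cell. Values were floored at the 5th percentile of positive values (3.09 units scaled, 2.10 unscaled) and log2 was taken. Probes that exceeded the floor in 5 or more samples were tested (65 scaled, 66 unscaled) with limma 3.58.1 in R 4.3.3, two-sided, with Benjamini-Hochberg adjustment over all of them and no covariate. The fit was tested on simulated data drawn with the spread of the CLP mice in both groups. That check therefore did not cover the wider spread of the sham mice. Exact permutation used 1287 splits, with a smallest possible p of 0.000777. Other steps ran in Python 3.11.15 (scipy 1.17.1, numpy 2.4.6, pandas 2.3.3), with figures from matplotlib 3.10.9. Each sample was taken as 1 mouse, so p-values reflect the spread between these samples alone, and their number limits the precision.

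Alternatives changed the scaling, floor, filter, test, covariate, replicate block and mice. The named miRNAs were the members, the 3 most alike of each by Pearson r, and list members past the threshold. Members, lists and alternatives were chosen with earlier results of these data known. The replicate numbers of the 2 groups were not taken as pairs.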

Additional observations from a re-analysis of the deposited data

Results flagged for a closer look

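CLP 4 stood apart in the mix of the family: miR-29a-3p made up 59.4% of its summed miR-29 signal, and the nearest of the other 7 CLP mice had 54.4%. The gap was 0.546 of the range of the group, above Dixon's 95% limit for 8 samples. It was the single such value among 26 groups of values checked, of which chance alone flags about 1 in 20, and sham 3 had a higher share (61.9%).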

How the results depend on the processing

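The unscaled rises of the 3 members passed under every alternative apart from the panel level as a covariate, where they were at -0.0061 (miR-29a-3p), 0.55 (miR-29b-3p) and -0.0043 (miR-29c-3p), none past the threshold. That covariate is itself higher in CLP mice. With 1 mouse left out the unscaled changes ran from 1.67 to 2.39, from 1.996 to 2.52 and from 1.69 to 2.59 in the same order, and without the 2 weakest sham mice they were 1.26, 1.69 and 1.31. The scaled change of miR-29a-3p turned to -0.034 with the replicate block and to -0.040 without the 2 weakest sham mice, and ran from -0.016 to 0.10 with 1 mouse left out. That of miR-29b-3p passed with the 75th percentile (0.463) and the authors' values (0.457), and ran from 0.17 to 0.31 with 1 mouse left out. That of miR-29c-3p ran from 0.0078 to 0.31 with 1 mouse left out and from 0.0028 to 0.41 over its 25 alternatives, and passed in none. The ratio of miR-29b-3p to miR-29a-3p passed without the 2 weakest sham mice (0.43) and ran from 0.13 to 0.33 with 1 mouse left out, passing without sham 1. With the level as a covariate it was 0.56 and did not pass. Those of miR-29c-3p to miR-29a-3p and of miR-29b-3p to miR-29c-3p ran from 0.024 to 0.31 and from -0.13 to 0.31 with 1 mouse left out, and from 0.0018 to 0.31 and from -0.13 to 0.55 over all alternatives.

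Counts over the panel moved too. After scaling 7 miRNAs were higher and 13 lower, against 4 and 6 with median scaling, 13 and 6 with the 75th percentile or the authors' values, 5 and 5 with quantile normalization and 2 and 4 with the replicate block. With 1 mouse left out, 3 to 9 were higher (3 without sham 2, 4 without sham 1, CLP 4, CLP 5 or CLP 7) and 8 to 16 lower (8 without sham 2), and without the 2 weakest sham mice 4 were higher. Unscaled, 60 were higher, against 36 without the 2 weakest sham mice, 39 of 43 with dim probes removed, and 4 higher and 4 lower with the level as a covariate. Same-numbered mice did not deviate together (correlations from -0.34 to 0.29, over 0.1 in 2 of 5 pairs, 1 of 5 best with its own number), so the numbers were not taken as pairs. With the replicate block the scaled change of miR-29b-3p was 0.19 and the ratio of miR-29b-3p to miR-29a-3p 0.22, and neither passed. The causes of these shifts were not tested.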
